A study of Drosophila melanogaster with 18 samples.

Results

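The wild-type embryos of the series were followed from the cleavage divisions, before cycle 9, to cycle 14, across every gene of the count table. The libraries were chosen by their labels alone: 3 wild-type libraries before cycle 9 and 3 at cycle 14, which makes 6 of the 18 libraries of the series. Early Drosophila development runs on RNA that nurse cells load into the egg, and the zygotic genome is silent at first. Maternal RNAs are then removed in steps, first by maternally encoded factors and later with help from zygotic products, while zygotic genome activation (ZGA) builds up to its major wave at cycle 14. At that stage the syncytial embryo encloses its nuclei in membrane, a process called cellularization, and the body plan is laid down.

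The labels call all 6 libraries WT, and they carry no knockdown. The library names label the early embryos by age, as the first hour, and the later embryos by a stage number. The study's methods list a control stock of its RNAi collection, without stating that these libraries came from it. Embryos were staged by hand under oil, whole embryos were lysed, ribosomal RNA was depleted and stranded libraries were made from biological replicates. The sample titles say total RNA, whereas the molecule field says nuclear RNA. The other 12 libraries, from knockdowns of E(z) and CBP at the same stages, entered the fit for its estimate of the spread and are not described here.

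Depth differed between the stages, with 16107228 to 17545601 estimated counts in the libraries before cycle 9 and 6243486, 13773744 and 10523097 in replicates 1, 2 and 3 at cycle 14. A level is given in CPM, the count scaled to a common library size with edgeR's TMM factors, and no spike-in was used here, so every level is relative to its library. A floor of 3 counts corresponded to at most 0.184 CPM before cycle 9 and 0.474 CPM at cycle 14. Replicate 1 at cycle 14 stood somewhat apart: against the mean of its partners it was higher by a median log2 difference of 0.17 in the shortest of 5 equal classes of exon length over 5551 genes and lower (-0.17) in the longest class. The part of this length difference in the results was not tested; the counts over all genes, the main maternal and zygotic classes and the list counts were repeated without that library. Markers of other cells were checked next. Of 15 follicle cell genes, 13 were at or under the floor in all 6 libraries and their summed level was 0.0559 to 0.123 CPM before cycle 9 and 0.294 to 1.25 CPM at cycle 14. Of 7 testis genes, 6 were at the floor throughout. Later-embryo cuticle genes summed to 0.245 to 0.559 CPM before cycle 9 and 10.4 to 12.2 CPM at cycle 14, with 111 of 120 at the floor in every library. Haemocyte markers went from 241 to 266 CPM down to 18 to 21 CPM. Nearly all of it came from the scavenger receptor gene crq (241 to 266 CPM, then 16.7 to 19.3 CPM). Later-embryo neuron markers went from 40.5 to 44.9 CPM up to 219 to 232 CPM, with elav at 115 to 135 CPM at cycle 14. Of 5 neuron markers tested, 4 were higher and futsch was lower. Fat body markers summed to 4.74 to 6.33 CPM and later-embryo muscle markers to 4.03 to 6.8 CPM at cycle 14, both under 0.5 CPM before cycle 9. The embryo is a syncytium before cycle 9, so these sums are RNA levels of whole embryos and do not count cells of a type.

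The shift between the stages touched most of the transcriptome. Of 8467 genes tested, 50.8% were called (edgeR quasi-likelihood test, Benjamini-Hochberg adjusted p under 0.05 and at least a 2-fold difference): 21% were higher at cycle 14 and 29.8% were lower. Without the fold threshold 87% of genes passed the adjusted p. The replicates of the stages did not overlap for 86.8% of genes, and 3 against 3 libraries cannot give an exact permutation p below 0.1 for a single value. The direction of small changes depends on the scaling. DESeq2 size factors moved the median log2 fold change of all genes from 0.13 to 0.39 and the share of higher calls from 41.3% to 51.9%, with 2414 higher and 2236 lower. Calls and list medians below are taken from 0, and the median of all genes, 0.13, was not subtracted from them.

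A maternal RNA is taken here as one with at least 10 CPM before cycle 9, which held for 5952 genes. Of these, 2338 (39.3%) were lower at cycle 14 and 1442 (24.2%) were lower by 4-fold or more, among them 371 (6.23%) by 16-fold or more. RNAs were called kept where the 95% interval of the log2 fold change lay within 1 of 0. This held for 2866 of them (48.2%), which are 33.8% of all genes tested, since the rule applies only to maternal RNAs. At this scaling 230 (3.86%) were called higher, a count that was not repeated with other scalings. With DESeq2 size factors the higher calls over all genes went from 1778 to 2414, and RNAs seen only at cycle 14 from 333 to 345. The RNAs lower by 4-fold or more made up 24.1% ± 0.237 (SD, n = 3) of the counts of tested genes before cycle 9 and 2.71% ± 0.0386 at cycle 14. Kept RNAs took 49.3% ± 0.464 before cycle 9 and 61.5% ± 0.909 at cycle 14. RNAs termed seen only at cycle 14, a class defined below by a low early level, took 4.93% ± 0.128 there.

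**Figure D1:**
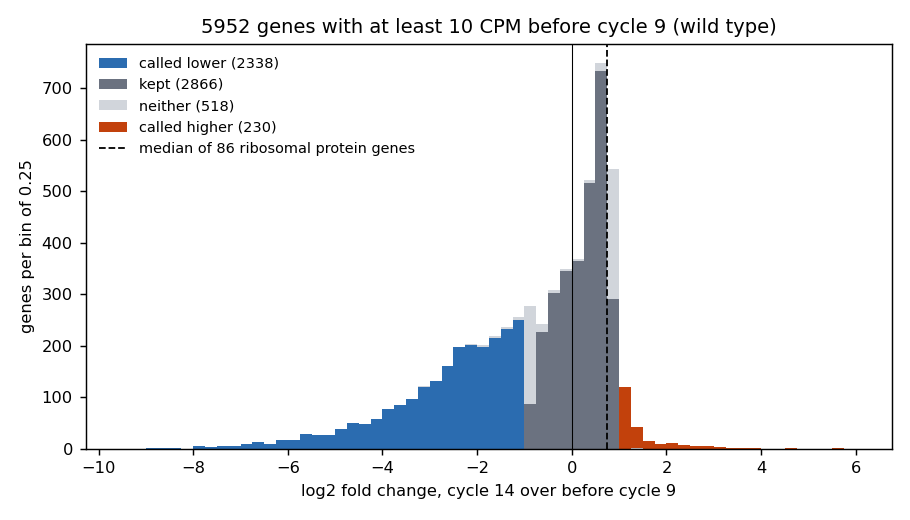
Histogram of the log2 fold change (x axis, bins of 0.25) of the 5952 genes with at least 10 CPM before cycle 9, with the number of genes per bin on the y axis and colours for genes called lower, kept, neither or called higher. The fullest bin, 0.50 to 0.75, holds 749 genes, close to the dashed median of 86 ribosomal protein genes at 0.75, with a long tail of lower values on the left and few genes to the right.

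The distribution of these changes had a long left tail and a steep right edge. Its fullest bin ran from 0.50 to 0.75 on the log2 scale and held 749 genes. The 86 cytoplasmic ribosomal protein genes tested lay between 0.27 and 1.02, with a median of 0.75. Of the 230 maternal RNAs called higher, 121 had a log2 fold change under 1.25, next to this edge, and 42 reached 2 or more. When the interval was taken around the ribosomal protein median instead of 0, 2428 RNAs were kept. At that reference 2091 maternal RNAs were lower by 4-fold or more. The threshold itself fell in a dense region, since the called gene nearest to it had an absolute log2 fold change of 1.0001 and the nearest gene outside it 0.9991.

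Within each list below, the genes named are those with the highest levels among the higher, lower and kept members. The others, among them bcd, alphaTub84B, hb, tkv, sax, Med, sisA, Sxl, roX2, 7SLRNA:CR42652 and the subunits of complexes, were chosen after their values were seen. The lists are described by counts with no test. Of all genes tested 21% were higher and 29.8% lower, and for lists made up mostly of maternal RNAs the nearer background is the 39.3% lower, 48.2% kept and 3.86% higher among all maternal RNAs.

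The RNAs that mark the egg and its germ plasm were among those cleared. Germ plasm RNAs encode the determinants that sit at the posterior pole and specify germ cells. Of 8 tested, 6 were lower and 2 were kept, with a median log2 fold change of -3.14. osk, which encodes the organizer of the germ plasm, measured 1789, 1510 and 1546 CPM in the libraries before cycle 9 and 64.5, 72.6 and 68.5 CPM at cycle 14. The groups did not overlap, and the log2 fold change was -4.55 ± 0.0859 (SE). nos, encoding a translational repressor of the posterior, fell to 7.16% of its early level, and tud, a scaffold of the polar granules, to 13.4%. aub was kept, with 176, 162 and 160 CPM before cycle 9 and 186, 206 and 208 CPM at cycle 14; it encodes a PIWI protein that acts on piRNAs.

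Of 22 axis determinants tested, 13 were lower, 7 kept and 1 higher, with a median of -1.26. exu, needed to localize bcd RNA in the oocyte, had 1278, 1150 and 1252 CPM before cycle 9 and 26.4, 26.4 and 25 CPM at cycle 14, a log2 fold change of -5.56 ± 0.0746. fs(1)N and fs(1)M3, eggshell proteins that act in terminal patterning, fell to 4.51% and 1.96% of their early levels. bcd itself, the anterior morphogen, was less reduced at -1.11. Among the 7 kept members, Tl, the Toll receptor, had a log2 fold change of 0.48 and cact, the inhibitor of Dorsal, 0.78. The higher call was pip, at 0 counts before cycle 9 and only 1.74 to 2.59 CPM at cycle 14.

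Egg activation and meiosis functions included deep losses. Of 20 genes tested, 11 were lower, 9 were kept and none was higher, with a median of -1.82. dhd, a germline thioredoxin that acts on sperm chromatin, had 3766, 3413 and 3792 CPM before cycle 9. At cycle 14 it had 17.1, 18.1 and 17.6 CPM, a 208-fold drop (log2 fold change -7.69 ± 0.114, adjusted p = 8.49e-18, edgeR quasi-likelihood test, Benjamini-Hochberg). mtrm, which encodes an inhibitor of Polo kinase in meiosis, dropped from 471 to 536 CPM to 4.33 to 6.48 CPM. gwl, a kinase that restrains a phosphatase at mitotic entry, fell to 18.3% of its early level. Among the kept members wisp, a cytoplasmic poly(A) polymerase, had 1229, 1223 and 1229 CPM before cycle 9 and 713, 954 and 906 CPM at cycle 14. polo, the mitotic kinase itself, differed by a log2 fold change of -0.01 ± 0.0342.

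Next come the factors that carry, mask, translate and degrade maternal RNA. Of 21 RNA transport and translation control genes, 12 were lower, 4 kept and 2 higher, with a median of -1.27. aret, which encodes the translational repressor Bruno, went from 2142, 1940 and 1926 CPM to 31.1, 31.1 and 35.1 CPM, 1.62% of its early level. Dhc64C, the dynein heavy chain that moves RNA along microtubules, fell to 5.20% and orb, a CPEB protein, to 3.32% of the early level. pAbp, the poly(A) binding protein, was kept at 0.49. Of 24 repression and decay genes, 9 were lower and 15 kept, and none rose; the median was -0.44. smg, which encodes the main maternal recruiter of the deadenylase, had 3689, 3297 and 3336 CPM before cycle 9 and 1324, 1758 and 1557 CPM at cycle 14. Its log2 fold change was -1.15 ± 0.0859, and those of its partners tral and me31B were -1.14 and -1.10. With DESeq2 size factors these 3 values became -0.90, -0.89 and -0.85 and were no longer called, and 6 genes of the list remained called lower in place of 9. Not1, the scaffold of the CCR4-NOT deadenylase, was kept with 1685, 1492 and 1516 CPM and then 1854, 2345 and 2351 CPM. gw, which links Argonaute 1 to deadenylation, was kept at 0.77.

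Cell cycle lists follow. Of 22 cyclins, Cdks and their switches, 12 were lower, 9 kept and 1 higher, with a median of -1.18. CycB had 3869, 3714 and 3692 CPM before cycle 9 and 1574, 1809 and 1725 CPM at cycle 14, so its groups did not overlap. Its log2 fold change of -1.14 became -0.89 with DESeq2 size factors and was then not called. stg, encoding the Cdc25 phosphatase that times later mitoses, fell to 24.6% of its early level and lok, the checkpoint kinase Chk2, to 18.2%. trbl, which encodes an antagonist of Cdc25, rose from 81.6, 89.1 and 87.2 CPM to 652, 692 and 711 CPM, 7.97-fold. CycE and CycA were kept at 0.10 and -0.72.

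For DNA replication 22 of 32 were lower, 10 were kept and none was higher, with a median of -1.60, and for DNA damage repair 15 of 22 were lower and 6 kept, with a median of -2.24. RnrS, a subunit of ribonucleotide reductase, had 805, 800 and 805 CPM before cycle 9 and 228, 145 and 150 CPM at cycle 14. RnrL, the other subunit, fell to 13.6% and Mcm5, part of the replicative helicase, to 14.6% of the early level. Msh6, a mismatch repair protein, fell by 4.54 on the log2 scale. PCNA, the sliding clamp, and Rif1, which delays replication of heterochromatin, were kept at -0.88 and 0.50. Of the 40 centrosome, spindle and kinetochore genes tested, 20 were lower, 17 kept and 1 higher, with a median of -1.14. msps, a microtubule polymerase, fell from 1097, 1045 and 1042 CPM to 127, 121 and 126 CPM, and spd-2, a centrosome scaffold, fell to 11.8%. cnn, another centrosome scaffold, was the higher call, at 271, 284 and 269 CPM and then 555, 590 and 616 CPM.

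Of 7 tubulins tested, 2 were lower, 2 kept and 2 higher. The higher calls were alphaTub84D and betaTub60D. The latter had 0.429, 0.511 and 0.559 CPM and then 1.26, 2.72 and 0.575 CPM and was not called without replicate 2 of cycle 14 (log2 fold change 0.78, edgeR adjusted p = 0.158). alphaTub67C, the alpha-tubulin of the egg and early embryo, had 613, 568 and 619 CPM before cycle 9 and 11.5, 12.6 and 11.6 CPM at cycle 14. gammaTub37C, the maternal gamma-tubulin, went from 141, 140 and 148 CPM to 1.42, 2.06 and 2.78 CPM. gammaTub23C, the gamma-tubulin of somatic cells, was kept with 86.1, 84.2 and 82.7 CPM and then 132, 131 and 129 CPM. betaTub56D was kept at 0.87. alphaTub84B and alphaTub84D are near-identical and their counts were not whole numbers, so that their ratios of 1.90 and 2.30 are uncertain.

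Chaperone and glycolysis lists had low medians. Of 28 heat shock proteins and chaperones tested, 18 were lower, 3 kept and 2 higher, with a median of -1.99. Hsp83, the Hsp90 chaperone and a known target of maternal RNA decay, had 3834, 3846 and 3870 CPM before cycle 9 and 192, 203 and 216 CPM at cycle 14. Its log2 fold change was -4.24 ± 0.153. Hsp26 fell to 2.80% and Hsc70-3, the chaperone of the endoplasmic reticulum, to 32.8%. Hsc70-4, the cytoplasmic Hsp70, was kept and among the most abundant RNAs, with 2863, 2954 and 2794 CPM and then 3852, 4264 and 4171 CPM. For glycolysis 10 of 12 genes were lower, with a median of -2.73. Gapdh2, the glyceraldehyde phosphate dehydrogenase, went from 1713, 1566 and 1684 CPM to 12.3, 13.5 and 16.4 CPM, a 118-fold drop. PyK, pyruvate kinase, fell to 3.70% and Eno, enolase, to 17.7%. Ald, aldolase, was the kept member at 0.31, and ImpL3, lactate dehydrogenase, was at 0 counts before cycle 9 and at 12, 13 and 13.3 CPM at cycle 14. Of 17 secretory coat and translocon genes 10 were lower and 7 kept, with a median of -1.31.

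Several complexes divided along their parts. The divisions below were chosen after the values were seen and are given as descriptions. All 14 genes of the 20S core of the proteasome, the barrel that cleaves proteins, had log2 fold changes between -0.53 and 0.79 and 13 were kept, whereas 13 of 18 genes of the 19S regulatory particle, which unfolds ubiquitylated proteins, were lower with a median of -1.84. Prosalpha2 had 235, 225 and 231 CPM before cycle 9 and 310, 296 and 288 CPM at cycle 14. Rpn1, a scaffold of the 19S particle, had 438, 417 and 429 CPM and then 66.8, 71 and 68.7 CPM. The exceptions in the 19S particle that were kept were Rpn6, Rpn12 and Rpt4. The 11 subunits of eIF3, which brings messenger RNA to the small ribosomal subunit, were all kept (0.36 to 0.83), leaving aside the loosely bound eIF3j, encoded by Adam, which was lower at -2.47. Of 8 subunits of eIF2 and eIF2B, which deliver and recycle the initiator transfer RNA, 5 were lower and 2 kept (-2.96 to -0.56). The 8 genes of the CCT ring, which folds actin and tubulin, were all lower, from -3.30 to -1.58. The 5 Mad and Bub checkpoint genes and the 4 genes of the chromosomal passenger complex were kept, while the 3 genes of the RZZ complex, which recruits checkpoint proteins and dynein to kinetochores, were lower, from -3.62 to -2.42. The 6 genes of the origin recognition complex were lower, and 5 of 6 of the MCM helicase were, with Mcm7 kept at 0.76.

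**Figure D2:**
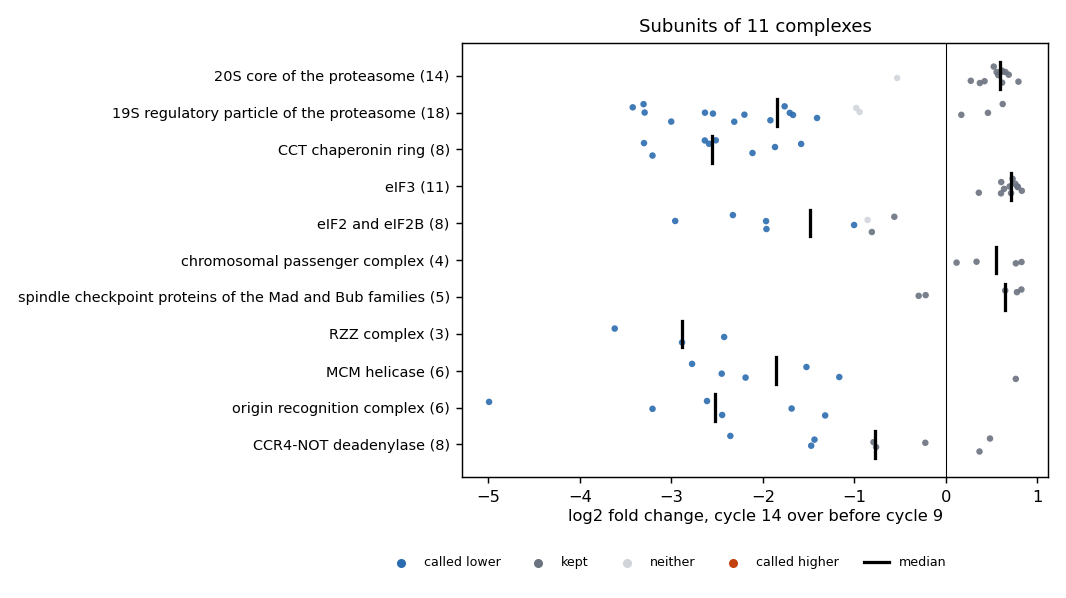
Log2 fold change at cycle 14 over before cycle 9 (x axis) of each subunit of 11 complexes (y axis, number of genes in brackets), coloured by call, with the median as a black bar. The 20S core lies near its median of 0.59 and the 19S particle near -1.84, and the eIF3 subunits sit to the right of all subunits of eIF2 and eIF2B.

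Lists of general gene expression held many kept RNAs. The 8 kept RNAs with the most counts were Ef1alpha48D, EF2, kis, Hsc70-4, lola, betaTub56D, Act5C and Nup358. Ef1alpha48D, which encodes translation elongation factor 1 alpha, had 9782, 9679 and 9644 CPM before cycle 9 and 13413, 13648 and 13417 CPM at cycle 14. EF2, elongation factor 2, had 5302, 4702 and 4756 CPM and then 7243, 7925 and 7941 CPM. kis, a chromatin remodeler with a long RNA, had 2980, 3120 and 2921 CPM and then 4291, 5535 and 5542 CPM, with the lowest cycle 14 value in replicate 1. Counts of lola were not whole numbers in most libraries and the gene overlaps others.

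Of 93 cytoplasmic ribosomal protein genes in the table, 86 were tested, 67 were kept, 1 was higher and none was lower. RpL4 had 1769, 1526 and 1593 CPM before cycle 9 and 2515, 2546 and 2600 CPM at cycle 14. The higher call, RpL36 at 1.02, was no longer called without replicate 1 of cycle 14 (0.88), and with DESeq2 size factors 46 genes of the list were called higher. Translation factors had 28 kept, 11 lower and 2 higher of 44 tested, with a median of 0.62. Splicing factors had 19 kept, 2 lower and 6 higher of 31, with a median of 0.79; B52, an SR protein, went from 462, 408 and 429 CPM to 901, 964 and 986 CPM. Nuclear pore, lamina and import genes had 24 kept and 6 lower of 36, with a median of 0.46, and ribosome biogenesis genes 14 kept, 4 lower and 1 higher of 20. Pen, an importin alpha of the germline, was among the lower ones with 1446, 1402 and 1377 CPM and then 232, 242 and 242 CPM. For RNA polymerase II, TFIID and Mediator 32 of 57 were kept, 8 were lower and 4 higher. With DESeq2 size factors the higher calls became 14 for translation factors, 16 for splicing factors, 9 for the nuclear pore list, 10 for ribosome biogenesis and 16 for the polymerase list. A small common rise of these lists and a difference in scaling cannot be told apart.

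The lists of mitochondrial functions differed. Of 69 nuclear genes of oxidative phosphorylation tested, 47 were kept, 11 lower and 3 higher, with a median of 0.42. Of 73 mitochondrial ribosomal protein genes, 37 were kept and 21 lower, with a median of -0.27. ATPsyn-beta and ND75, of the ATP synthase and complex I, were the kept members with the highest level before cycle 9.

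**Figure D3:**
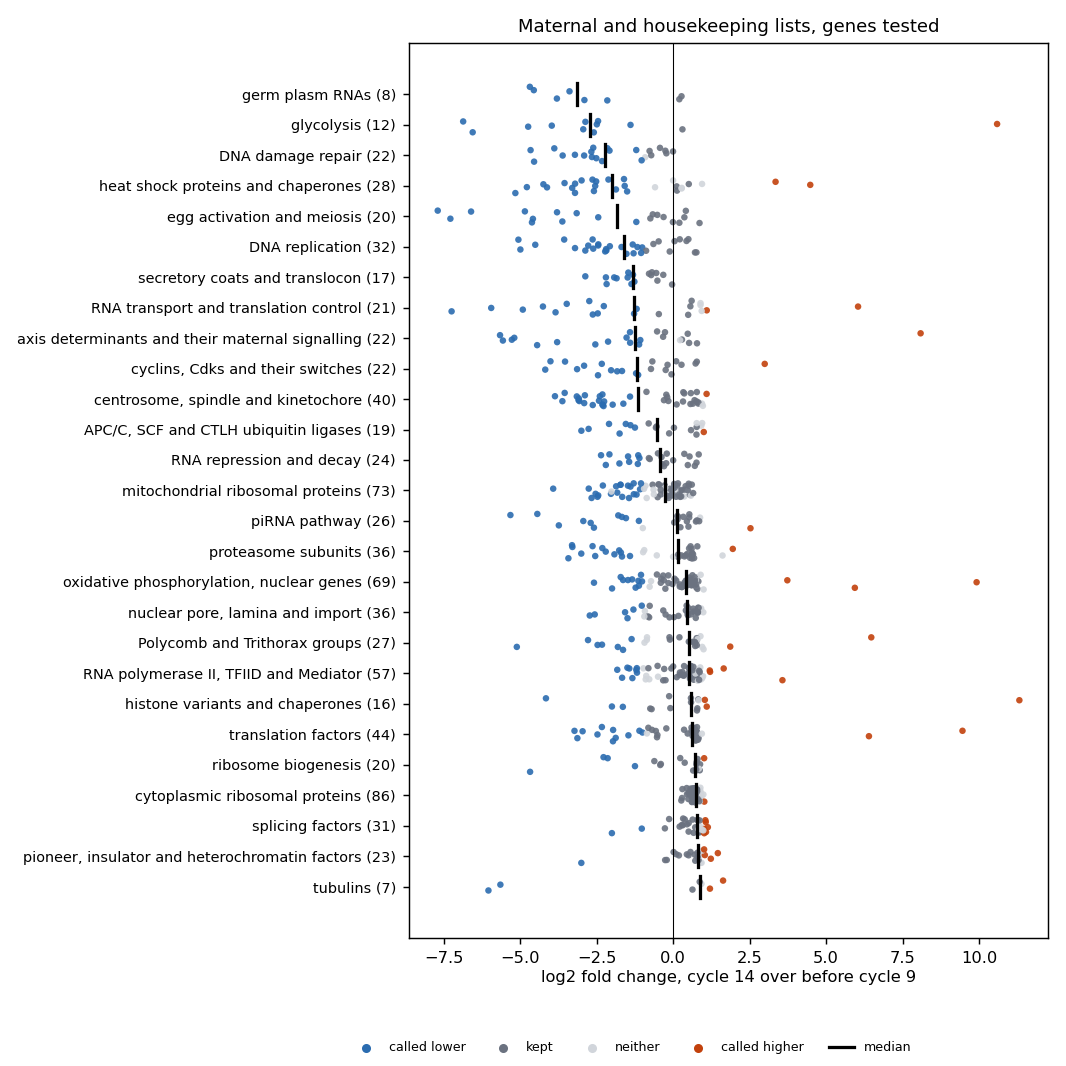
Log2 fold change at cycle 14 over before cycle 9 (x axis) of every tested gene in 27 maternal, housekeeping and chromatin lists (y axis, ordered by median, number of genes tested in brackets), coloured by call, with the median as a black bar. Germ plasm RNAs have the lowest median (-3.14) and glycolysis follows (-2.73), whereas the ribosomal protein genes form a narrow group around 0.75.

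Chromatin lists held kept, lower and higher members. For pioneer, insulator and heterochromatin factors, 13 of 23 were kept, 4 higher and 1 lower, with a median of 0.80. vfl, which encodes the pioneer factor Zelda, had 771, 810 and 749 CPM before cycle 9 and 1805, 2327 and 2287 CPM at cycle 14. Trl, encoding GAGA factor, rose 2.35-fold, although its counts were not whole in most libraries. CTCF, an insulator protein, was the lower call, from 141, 158 and 153 CPM to 18.6, 19.6 and 18.1 CPM. Of 27 Polycomb and Trithorax genes, 11 were kept, 7 lower and 2 higher. Pcl, a partner of the Polycomb methyltransferase, fell by 1.36, and jing rose from 204, 190 and 192 CPM to 651, 721 and 766 CPM. ph-p went from 2.82, 3.35 and 2.52 CPM to 247, 254 and 275 CPM, but shares counts with its neighbouring copy ph-d, so that this value is uncertain. Of 16 histone variants and histone chaperones, 9 were kept, 3 lower and 3 higher. BigH1, the linker histone of the early embryo, fell from 154, 180 and 164 CPM to 48.5, 41.4 and 35.8 CPM, and Hira, a chaperone of histone H3.3, fell by 4.16. His3.3A rose 2.15-fold and HmgZ appeared, at 0 counts before cycle 9 and 28, 17.4 and 18.4 CPM at cycle 14. With DESeq2 size factors the higher calls became 12 of the 23 pioneer, insulator and heterochromatin factors, 9 of the Polycomb and Trithorax genes and 7 of the histone variant list, and without replicate 1 of cycle 14 the 4 higher pioneer and insulator calls became 2. The piRNA pathway had 13 kept, 10 lower and 1 higher of 26, with a median of 0.14. piwi, the nuclear PIWI protein, fell to 13.2%, and AGO3, a cytoplasmic one, was kept at 0.53.

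The largest decreases over all genes went beyond these lists. They were, by the ratio of means, Cyp6a19, CG8180, CG17896, CG4476, CG10960, GstD1, dhd, sqz, D19A and CG14545. Cyp6a19, a cytochrome P450, had 432, 448 and 497 CPM before cycle 9 and 1.74, 0.881 and 0.384 CPM at cycle 14, a 458-fold drop. GstD1, a glutathione transferase, had 673, 681 and 709 CPM and then 3.32, 2.64 and 3.26 CPM. sqz, a zinc finger factor, fell 197-fold. The rule that picked them required replicates that do not overlap between the stages, which held for 86.8% of all genes tested. Of the 345 maternal RNAs with at least 500 CPM before cycle 9, 35.9% were lower, 22.6% by 4-fold or more, 54.5% were kept and 2.9% were higher.

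Some maternal RNAs were higher at cycle 14, in a number that depends on the scaling. wech, slam, Nrt and kuk were named after their values were seen, apart from slam, which the cellularization list names. wech, a TRIM protein that links integrins to the cytoskeleton in later embryos, had 885, 801 and 799 CPM before cycle 9 and 6039, 6472 and 6858 CPM at cycle 14. slam, which directs membrane growth at cellularization, had 225, 223 and 220 CPM and then 4853, 5900 and 6433 CPM, a log2 fold change of 4.68 ± 0.130 (adjusted p = 6.06e-15, edgeR quasi-likelihood test, Benjamini-Hochberg). Nrt, an adhesion protein, rose 47.6-fold, and kuk, a nuclear envelope protein that shapes cellularizing nuclei, rose 5.06-fold. Replicates of the stages were far apart for each of them. Maternal RNAs called higher took 4.47% ± 0.339 of the counts before cycle 9 and 13.4% ± 1.09 at cycle 14, and 2.76% ± 0.0428 and 9.02% ± 0.149 without the 7SL RNA gene among them. Polarity, junction and actomyosin genes had 14 kept, 8 higher and 1 lower of 24 tested, all of them maternal. shg, E-cadherin, rose from 390, 371 and 366 CPM to 1353, 1397 and 1538 CPM, and arm, beta-catenin, rose 2.08-fold. RhoGEF2 was the lower call in that list.

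RNAs termed seen only at cycle 14 numbered 333, counted where the mean was under 1 CPM before cycle 9, at least 10 CPM at cycle 14 and called. The term is a short form, since many had some early counts, such as Ac78C with 48 and Galphas with 45 in all. Over all 3 early libraries together 91 of them had 0 counts and 113 had 1 to 3. At cycle 14, 118 of them reached 100 CPM and 27 reached 500 CPM. The lists contained 102 of the 333 and 231 were in none, and 98 carried only a CG or CR number as their name in the table. Their folds are limited by the depth before cycle 9, so each is given with an exact 95% binomial interval of the ratio, which covers counting error only, or as a bound against 3 counts per library.

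**Figure D4:**
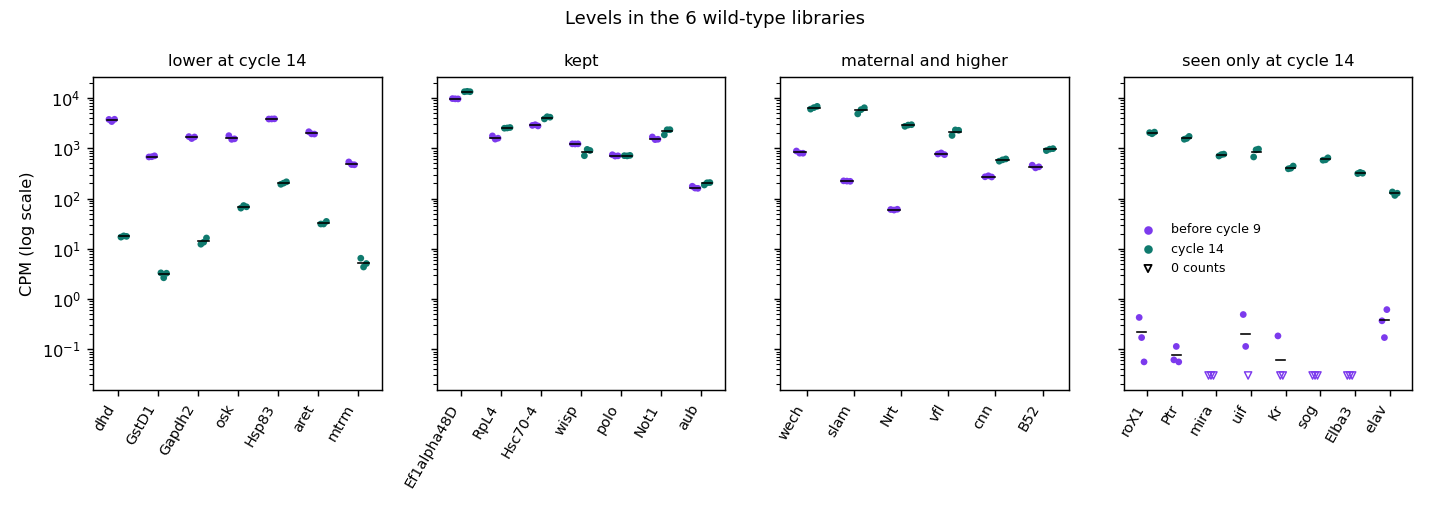
CPM on a log scale (y axis) of 28 genes in each of the 6 wild-type libraries, in panels for genes lower at cycle 14, kept, maternal and higher, and seen only at cycle 14. Dots are libraries, purple before cycle 9 and green at cycle 14, black lines are group means, and open triangles at the bottom are libraries with 0 counts. The replicates of a stage lie close together beside the distance between stages in the first and last panels.

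The 10 largest increases, ranked by the ratio of means with an early mean below the level of 3 counts set to that level, were roX1, Ptr, CG14317, ppa, CG10035, term, link, uif, mira and CG7271. By the ratio of the counts themselves the order differs, and genes with 1 to 3 early counts can exceed some of these, such as twi at 14300 (2560 to 564000). roX1, a noncoding RNA of the dosage compensation complex, had 0.429, 0.17 and 0.0559 CPM before cycle 9 and 2054, 1951 and 2105 CPM at cycle 14, a ratio of 9530 (5330 to 19100). Ptr, a Patched-related membrane protein, had 1515, 1574 and 1728 CPM at cycle 14 and 4 counts in all before cycle 9, a ratio of 20900 (8160 to 76700). ppa, an F-box protein that targets Paired for degradation, reached 1184, 1303 and 1372 CPM. mira, which partitions fate determinants in neuroblasts, had 0 counts before cycle 9 and 704, 750 and 767 CPM at cycle 14, at least 4024-fold higher. uif, a large transmembrane protein, had 673, 935 and 966 CPM, with the lowest value in the shallow replicate 1. Counts of term and CG7271 were not whole in 66.7% of libraries, and roX1, Ptr and uif overlap other genes.

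Segmentation genes are given by their tiers in the patterning cascade. Of 7 gap genes, the broad-domain factors, 6 were higher; 5 were at or under the floor in every library before cycle 9. Kr measured 391, 402 and 444 CPM at cycle 14 against 3 counts in all before cycle 9, a ratio of 7150 (2450 to 34700). kni had 240, 250 and 259 CPM from 0 counts, at least 1357-fold higher, and gt 177, 176 and 184 CPM, a ratio of 1030 (542 to 2250). The gene not called was hb, which is also loaded by the mother, with 338, 325 and 325 CPM and then 547, 666 and 631 CPM. Its log2 fold change of 0.90 lay just under the threshold, and all 7 gap genes were called higher with DESeq2 size factors. Of 10 pair-rule genes, which give double-segment stripes, 9 were higher. Their highest cycle 14 level was that of opa, with 531, 532 and 575 CPM, and h had 185, 180 and 200 CPM from 0 counts, at least 1024-fold higher. The kept member was ftz-f1, a maternal cofactor of ftz. Among 13 segment polarity genes, 12 were tested and all 12 were higher. ptc, the Hedgehog receptor, had 0.675, 0.682 and 0.559 CPM and then 755, 765 and 841 CPM, whereas arm rose only 2.08-fold from a maternal level. Among 10 Hox complex genes, 8 were tested and all 8 were higher. zen reached 118, 144 and 138 CPM and Antp 49.6, 36.1 and 36.4 CPM. Of 10 head patterning genes 9 were higher, with oc at 184, 177 and 184 CPM, and cnc, which also encodes the maternal Nrf2-type stress factor, was lower at 22.0% of its early level.

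Since genes with a low early level passed the expression filter mainly through cycle 14, these counts describe the families and do not test them. With genes at the floor set to their bound, the median ratio was 866-fold for the gap genes, 758-fold for the pair-rule genes, 541-fold for cellularization, 72.1-fold for Hox genes and 28.7-fold for segment polarity genes, against 1.14-fold for all genes tested.

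Germ layer and signalling families followed. In Dpp signalling and dorsal ectoderm 17 of 22 were higher and 5 kept. The higher ones were ligands, their extracellular regulators and targets: sog, a secreted Dpp antagonist, had 580, 591 and 648 CPM from 0 counts, at least 3295-fold higher, and tld, the protease that cuts Sog, had 221, 238 and 265 CPM. The kept ones were the receptors tkv, put and sax and the transducers Mad and Med. Of 7 JAK/STAT genes tested, 3 were higher: os and upd2, which encode ligands, and Socs36E, an inhibitor. The 3 kept ones include the kinase gene hop and the factor gene Stat92E. Of 16 mesoderm and ventral furrow genes tested, 12 were higher, 2 kept and 1 lower. twi had 294, 269 and 274 CPM and sna 207, 210 and 215 CPM at cycle 14. Mef2, a muscle factor, was lower, from 130, 136 and 132 CPM to 24.2, 14.8 and 14.3 CPM. All 17 neuroectoderm and proneural genes tested were higher, with D, a Sox factor, at 562, 619 and 620 CPM from 0 counts. The 8 endoderm and gut genes tested were higher, tll at 156, 156 and 165 CPM. Of 15 Bearded and Enhancer of split genes, inhibitors and targets of Notch signalling, 8 were tested and higher, led by Tom at 294, 227 and 232 CPM, and 4 were at the floor in all 6 libraries.

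**Figure D5:**
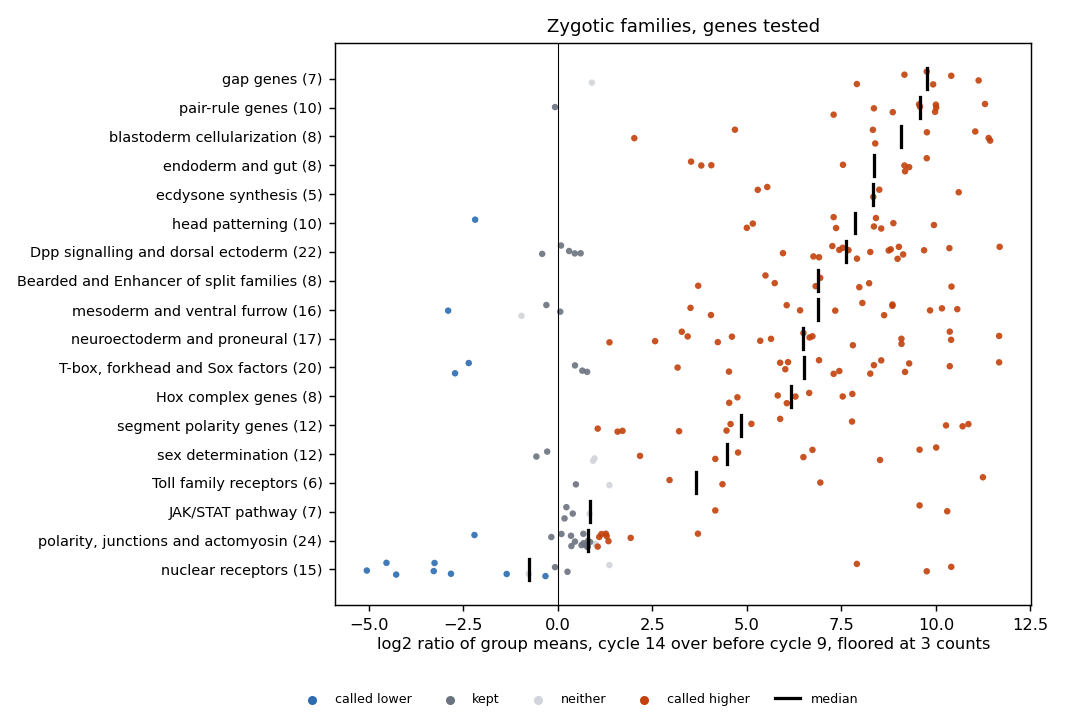
Log2 ratio of group means (x axis, cycle 14 over before cycle 9, lower mean set to at least the level of 3 counts) for the tested genes of 18 families (y axis, number tested in brackets), coloured by call, with the median as a black bar. Gap and pair-rule genes have the highest medians, Dpp and JAK/STAT lists hold kept members near 0, and the nuclear receptors split into 3 higher and 8 lower.

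Some families of transcription factors did not move as a whole. Of 15 nuclear receptors tested, 3 were higher and 8 lower. The higher ones, kni, tll and knrl, are patterning genes. Among the lower ones Hnf4, a lipid metabolism regulator, fell from 183, 161 and 170 CPM to 3.48, 5.88 and 6.14 CPM, usp, the partner of the ecdysone receptor, to 14.1%, and Hr39 to 4.32%. EcR and ftz-f1 were kept. Of 20 T-box, forkhead and Sox factors tested, 15 were higher, 3 kept and 2 lower, foxo among the latter at -2.34. Of 6 Toll family receptors tested, 4 were higher; 18w had 0.429, 0 and 0.0559 CPM and then 410, 445 and 483 CPM, and Tollo, with a maternal level of 57.2 to 65.4 CPM, rose 7.75-fold. Of 8 ecdysone synthesis genes, 5 were tested and higher, with spo at 310, 266 and 283 CPM at cycle 14. Sex determination showed the X-linked signal elements as zygotic: sisA had 80.3, 61.3 and 61.4 CPM and run 188, 174 and 206 CPM at cycle 14, while da, the maternal cofactor, was kept at -0.57. Sxl, the switch gene, was not called, at 0.97, just under the threshold. The higher calls of this list went from 8 to 10 with DESeq2 size factors. Of 8 cellularization genes all were tested and higher, with Sry-alpha at 1529, 1572 and 1673 CPM and Bsg25D, which also has a maternal RNA, rising 4.06-fold.

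Further genes were named after their values were seen, most of them outside the lists. The Elba complex binds insulators of the early embryo and is built from the products of Bsg25A, Elba2 and Elba3, with insv as a relative of Elba2. Bsg25A, which the cellularization list also holds, had 525, 492 and 513 CPM at cycle 14 against 1 count in all before cycle 9. Elba3, with 0 counts before cycle 9, was at least 1748-fold higher. Elba2 was already maternal, with 118, 130 and 130 CPM and then 925, 970 and 1037 CPM, and insv rose 4.87-fold. Other abundant RNAs of this kind were bnb at 840, 886 and 876 CPM, the gap junction gene Inx3 at 674, 588 and 622 CPM, the channel gene bib at 614, 627 and 629 CPM, and Egfr, the epidermal growth factor receptor, at 503, 582 and 629 CPM. elav, a neuronal RNA-binding protein listed as a marker of later neurons, had 0.368, 0.17 and 0.615 CPM and then 135, 115 and 128 CPM.

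Noncoding RNAs were a larger share of the genes called higher than of those called lower. Ribosomal RNA had been depleted and the libraries were not selected for poly(A), so noncoding RNAs without a poly(A) tail can be covered. Of annotated genes, 10.8% of those called higher and 0.8% of those called lower were not protein coding, against 3.92% of all genes tested. For RNAs seen only at cycle 14 the share was 3.4%. Genes near the floor before cycle 9 had little room to be called lower, so the expression filter bears on this contrast. The list of long noncoding RNAs is a mixed one. It also holds copies of ribosomal RNA sequence, hairpin RNAs and entries whose current symbol is a CG number. Of 242 members of this list tested, 142 were higher and 19 lower. At the floor in all 6 libraries were 1644 of its 2044 members. Among the called ones CR41602, a copy of 18S ribosomal RNA sequence, had counts that were not whole and its value is uncertain. roX2, the partner of roX1, was at 0 counts before cycle 9 and at only 5.06, 3.53 and 2.78 CPM at cycle 14. Of 71 small nuclear and nucleolar RNAs tested, 39 were higher and none was lower, and without replicate 1 of cycle 14 the count was 32. snRNA:7SK, which holds the elongation factor P-TEFb inactive, had 1257, 1440 and 1513 CPM and then 3235, 2670 and 2595 CPM, highest in replicate 1. Its log2 fold change of 1.01 was 0.90 and no longer called without that replicate. 7SLRNA:CR42652, of the signal recognition particle, had 13309, 17624 and 19451 CPM and then 56027, 36913 and 38741 CPM, but it and its copy share reads. All 236 microRNA precursors were at the floor in all 6 libraries, as were 214 of the 320 small nuclear and nucleolar RNAs. How well these libraries cover such short RNAs was not tested, so the floor values give no result about their expression. Replication-dependent histones, which have many identical copies, had 19 of 111 tested and 2 called higher. With library size scaling 0 were called, and without replicate 1 of cycle 14 there was 1 higher and 1 lower call, so neither direction held, and their split between copies is uncertain.

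The classes also differed in gene structure, which the choice of libraries did not use. Among annotated genes, 23.5% of RNAs seen only at cycle 14 had no intron, against 6.89% of maternal RNAs lower by 4-fold or more, 6.9% of kept RNAs and 10.8% of all genes tested. The median exon length was 2937 bases for RNAs seen only at cycle 14, 2246 for those lower by 4-fold or more, 2286 for kept RNAs and 2144 overall. The X chromosome held 10.8% of RNAs seen only at cycle 14, 17.2% of kept RNAs and 23.2% of maternal RNAs lower by 16-fold or more, against 17.4% of all. For all maternal RNAs, the nearer background of the kept and lower classes, 7.57% had no intron, the median length was 2262 bases and 18.1% lay on the X chromosome. The CPM cutoffs that define the classes are not scaled to length, so exon length bears on which genes enter them. These shares are descriptions with no test, and genes are not independent replicates.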

How the data were processed

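The authors sequenced ribosome-depleted, stranded libraries and aligned reads to dm6 with STAR in a two-pass mode that kept reads with several positions. The deposited table holds estimated counts per gene from the authors, of which 2.905% are not whole numbers (tolerance 0.01). The STAR options in the methods write gene counts as well as alignments to transcripts. Which of them, or what later program, gave the estimated counts is not given in the sources used here, nor are the annotation and whether counting used strand.

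Estimated counts were rounded, filtered with filterByExpr and scaled by TMM factors. All 18 libraries were fitted with edgeR 4.0.16 (limma 3.58.1, R 4.3.3; 12 residual degrees of freedom, biological coefficient of variation 0.115), and the standard error of a log2 fold change was its size divided by the square root of F. P-values set the difference between the stage means against a spread between biological replicates that was estimated over all 18 libraries, knockdowns included. On simulated data for this comparison with 8467 genes, 187 of 200 changed genes were recovered and 10 unchanged ones called, at adjusted p under 0.05 alone. Far fewer genes changed there than in the data, up or down at random. The simulation therefore does not test the fold threshold or the scaling under a broad shift. DESeq2 1.42.0, other filters, scalings and thresholds, and leaving out each library were tried as alternatives. Names were matched to an Ensembl annotation of the same assembly series and a table of older symbols: 12504 of 16680 matched as current and 3992 as older symbols, while 184 did not. Summaries were made with pandas 2.3.3 and numpy 2.4.6 under Python 3.11.15, and plots with matplotlib 3.10.9.

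The members and gene lists were chosen with earlier results of these data known. Genes named are the 10 largest increases and decreases, by the ratio of means with the lower mean set to at least the level of 3 counts, with at least 50 CPM and replicates that do not overlap, the 8 kept genes with the highest level, and up to 3 called members in each direction and 2 kept members per list, those with the highest levels. Any other gene named was chosen after its values were seen. Spike-ins, promoter sequences and the mitochondrial genome were not analysed here.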

Additional observations from a re-analysis of the deposited data

How the results depend on the processing

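Most counts held. The counts of genes higher, genes lower, maternal RNAs lower by 4-fold or more, maternal RNAs kept and RNAs seen only at cycle 14 stayed within 1.5 times under DESeq2, library size without TMM factors, no filter, the 6 wild-type libraries alone and the test against a log2 fold change of 1. With at least 10 counts required in every wild-type library, genes higher fell to 711 and RNAs seen only at cycle 14 to 7, since that filter removes genes near 0 before cycle 9; the medians of the head patterning and mesoderm lists then changed sign. Without a fold threshold 3862 genes were higher. With the interval required to lie within 0.5 of 0, 956 maternal RNAs were kept. Leaving out each wild-type library in turn gave 1804 to 1870 genes higher, 2511 to 2579 lower, 1435 to 1470 maternal RNAs lower by 4-fold or more, 2724 to 2884 kept and 330 to 339 seen only at cycle 14, all with a refiltered gene set. Added after the data were seen, edgeR with DESeq2 size factors gave 2427 higher and 2241 lower, and reference to the ribosomal protein median gave 2091 maternal RNAs lower by 4-fold or more and 2428 kept. With a replicate block 1767 genes were higher and 2524 lower; same-numbered libraries of the stages correlated at -0.0505, -0.0780 and -0.0345, so the numbers do not pair them. Of 3487 values for 275 named genes under the alternatives, 3376 stayed on their side of the threshold, 84 of 23 genes lost the call, 27 gained it and none reversed. List medians were less stable: of 684 values, 273 moved by more than the SD of the list's median level between replicates. In 3 lists 6 values changed sign, for head patterning, mesoderm and the haemocyte markers, the last with 2 genes tested. Scaling by spike-ins and the promoter motifs were not run. Depth limits the folds of RNAs near 0 before cycle 9, where a bound of 3 counts applies, and replicate 1 of cycle 14 is the shallowest library.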
